A study of Mus musculus with 8 samples.

Results

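The *Oas* and *Ifit* genes are antiviral genes that interferon switches on, and their H3K9ac peaks were compared between mice given vehicle and mice given curcumin on 3 *GFI1* backgrounds. The 8 genes *Oas1a*, *Oas2*, *Oas3*, *Oasl1*, *Oasl2*, *Ifit1*, *Ifit2* and *Ifit3* were named out of 21938 protein-coding genes. They were chosen with earlier results of these data known. Every peak within 1 kb of a transcription start site (TSS) or inside the gene body was taken for each. H3K9ac is the acetylation of lysine 9 of histone H3, a mark of active promoters. ChIP-seq with the antibody ab4441 was performed on frozen BM cells of C57BL/6 mice. All the mice carried the *Nup98-HOXD13* transgene, a fusion gene that models MDS and its progression to AML. The animals expressed a human *GFI1* cDNA from the murine locus, with serine (*GFI1-36S*) or asparagine (*GFI1-36N*) at residue 36, or had reduced GFI1 expression (*GFI1-KD*). They received either curcumin, a polyphenol that inhibits histone acetyltransferases, at 20 mg/kg weekly by i.p. injection, or DMSO as vehicle. There was 1 H3K9ac library for each genotype and treatment, 6 in all, so the differences below could not be checked against replicates, and none was tested. The ages, the number of mice behind a library and the promoter that drives the transgene are not given in the sources used here. An input and a rabbit IgG sample are also labelled and were not used here.

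Interferon binds its receptor and activates the kinases JAK1 and TYK2, and the signal reaches the nucleus as a complex that contains IRF9 and binds the interferon-stimulated response element (ISRE) in target promoters. Among the targets, the OAS proteins sense double-stranded RNA and answer by making 2-5A, a short oligoadenylate that acts as a second messenger against viral RNA. The mouse *Oas1* gene has been duplicated many times, and the OAS-like gene *Oasl1* encodes a protein without synthetase activity that restrains translation of the *Irf7* mRNA. The IFIT proteins are tetratricopeptide repeat proteins, of which IFIT1 binds mRNA caps that lack 2'-O-methylation and IFIT2 and IFIT3 act in complexes with it or with each other.

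Each deposited list gives the position, the summit, the fold enrichment of the summit over the local background, the −log10 p and the −log10 q of every peak, as the authors' peak caller wrote them. The lists held between 20354 and 49213 peaks, and their weakest summits held between 13 and 17 recovered fragments, so a missing peak means only that nothing at that place passed the caller's threshold. Since fold enrichment is not normalised between libraries, each gene's strongest promoter peak was ranked from 0 (no peak) to 100 (strongest) among the promoter peaks of its own library. Summit heights, the recovered fragments divided by the genome background of the library, were compared as ratios with exact 95% intervals that cover counting error only. For *GFI1-36S*, vehicle and curcumin are the other way round in the names of the lists than in the labels. The labels were followed, and these lists are called the library labelled vehicle and the library labelled curcumin. The latter stands apart from the other 5. It had promoter peaks at 11 of 12 T-cell genes (against 5 in its partner), 0 of 12 neutrophil genes (against 10), 0 of 8 monocyte genes (against 8) and 1 of 10 stem and progenitor genes (against 9), with the Y-linked *Kdm5d*, *Eif2s3y* and *Uty* marked and *Xist* unmarked, the reverse of all other libraries. Every *GFI1-36S* curcumin value and every comparison of treatments in *GFI1-36S* below rests on it. For *GFI1-36N*, the list names add that the vehicle mouse was heterozygous and the curcumin mouse homozygous for the allele. By these names, treatment and zygosity cannot be told apart in any *GFI1-36N* comparison of vehicle and curcumin below.

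Sequences upstream of the start sites were taken from the RefSeq promoter table of GRCm38.p6, which is the assembly of the peak lists, and are shown for the members whose window held the binding motif of the interferon-activated complex and for *Oas1c* and *Ifit3b*, the neighbours described further on. Of the 8 genes 7 had an entry in the table. A pair of motifs was searched on both strands of the 300 bp from 250 bp before to 50 bp after each start, with overlapping matches counted. The ISRE core was spelled GAAANNGAAA and the GAS, the gamma-activated site, TTCNNNGAA. An ISRE core was present in 4 of the 7 genes, namely *Oas1a*, *Oas3*, *Ifit1* and *Ifit3*, and in 3.99% of 27025 genes with an entry. Of the other interferon-stimulated genes described further on, 17 of 36 with an entry had one. A GAS match was found in *Oas1a* and *Ifit2* and in 9.55% of all genes. The windows of *Oasl1*, *Oasl2* and *Ifit2* held no ISRE core in these letters. The stretches below run 5′ to 3′ on the strand of the gene and stop before the first annotated transcript, with the ISRE cores in capitals.
*Oas1a* (chr5:120907526-120907685, minus strand): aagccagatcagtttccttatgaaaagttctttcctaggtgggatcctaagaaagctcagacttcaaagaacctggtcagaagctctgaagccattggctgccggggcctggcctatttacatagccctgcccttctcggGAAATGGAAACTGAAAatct
*Oas3* (chr5:120777662-120777795, minus strand): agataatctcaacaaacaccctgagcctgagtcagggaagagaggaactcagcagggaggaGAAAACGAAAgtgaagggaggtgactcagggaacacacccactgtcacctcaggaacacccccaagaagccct
*Ifit1* (chr19:34640744-34640870, plus strand): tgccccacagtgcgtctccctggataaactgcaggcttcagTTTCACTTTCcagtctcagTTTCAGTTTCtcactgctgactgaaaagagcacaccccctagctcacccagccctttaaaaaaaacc
*Ifit3* (chr19:34583359-34583528, plus strand): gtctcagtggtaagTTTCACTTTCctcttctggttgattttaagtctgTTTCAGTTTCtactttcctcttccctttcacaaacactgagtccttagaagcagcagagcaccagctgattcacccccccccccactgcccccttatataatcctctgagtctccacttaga
*Oas1c* (chr5:120812515-120812634, minus strand): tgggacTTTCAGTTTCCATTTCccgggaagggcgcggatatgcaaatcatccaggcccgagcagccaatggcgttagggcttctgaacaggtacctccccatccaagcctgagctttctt
*Ifit3b* (chr19:34607755-34607956, plus strand): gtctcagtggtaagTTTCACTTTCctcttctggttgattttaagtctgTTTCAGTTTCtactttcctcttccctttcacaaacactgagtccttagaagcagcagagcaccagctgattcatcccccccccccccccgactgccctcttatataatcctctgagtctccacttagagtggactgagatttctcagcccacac
In *Oas1a* the 2 cores overlap and begin 20 and 14 bp before the RefSeq start. In *Oas3* a single core lies 75 bp before it. The *Ifit1* stretch is the whole interval between *Ifit1* and the divergent *Ifit1bl2*, so its 2 cores stand in front of both genes. They begin 104 and 85 bp before the RefSeq start of *Ifit1*, which lies downstream of the annotated start from which peak distances are given below. The *Oas1c* stretch likewise fills the interval to the divergent *Oas1b*. *Ifit3* and *Ifit3b* carry the same pair of cores in near-identical sequence.

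With vehicle, 7 of the 8 genes had a promoter peak in every genotype, and *Ifit3* had none in any of the 6 libraries. With curcumin, *GFI1-36N* had one at 6 of the 8, *GFI1-KD* at 4 and *GFI1-36S* at 1. Among all protein-coding genes, between 51.7% and 53.6% had a promoter peak in a vehicle library. In the curcumin libraries the share was 53.8% for *GFI1-36N*, 50.6% for *GFI1-KD* and 44.3% for *GFI1-36S* as labelled. The members' peaks were weak to middling for promoters. The median rank of the 8 genes with vehicle was 27.5 in *GFI1-36N*, 23.5 in *GFI1-KD* and, for *GFI1-36S*, 9.48. With curcumin it was 6.50, 0.0450 and 0. The peaks were also narrower with curcumin. The median width of the members' strongest peaks with vehicle was 1400 bp in *GFI1-36N* and 1440 bp in *GFI1-KD*, against 1720 and 1960 bp for all genes, and with curcumin it was 841 and 410 bp, against 1770 and 1540 bp.

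**Figure D1:**
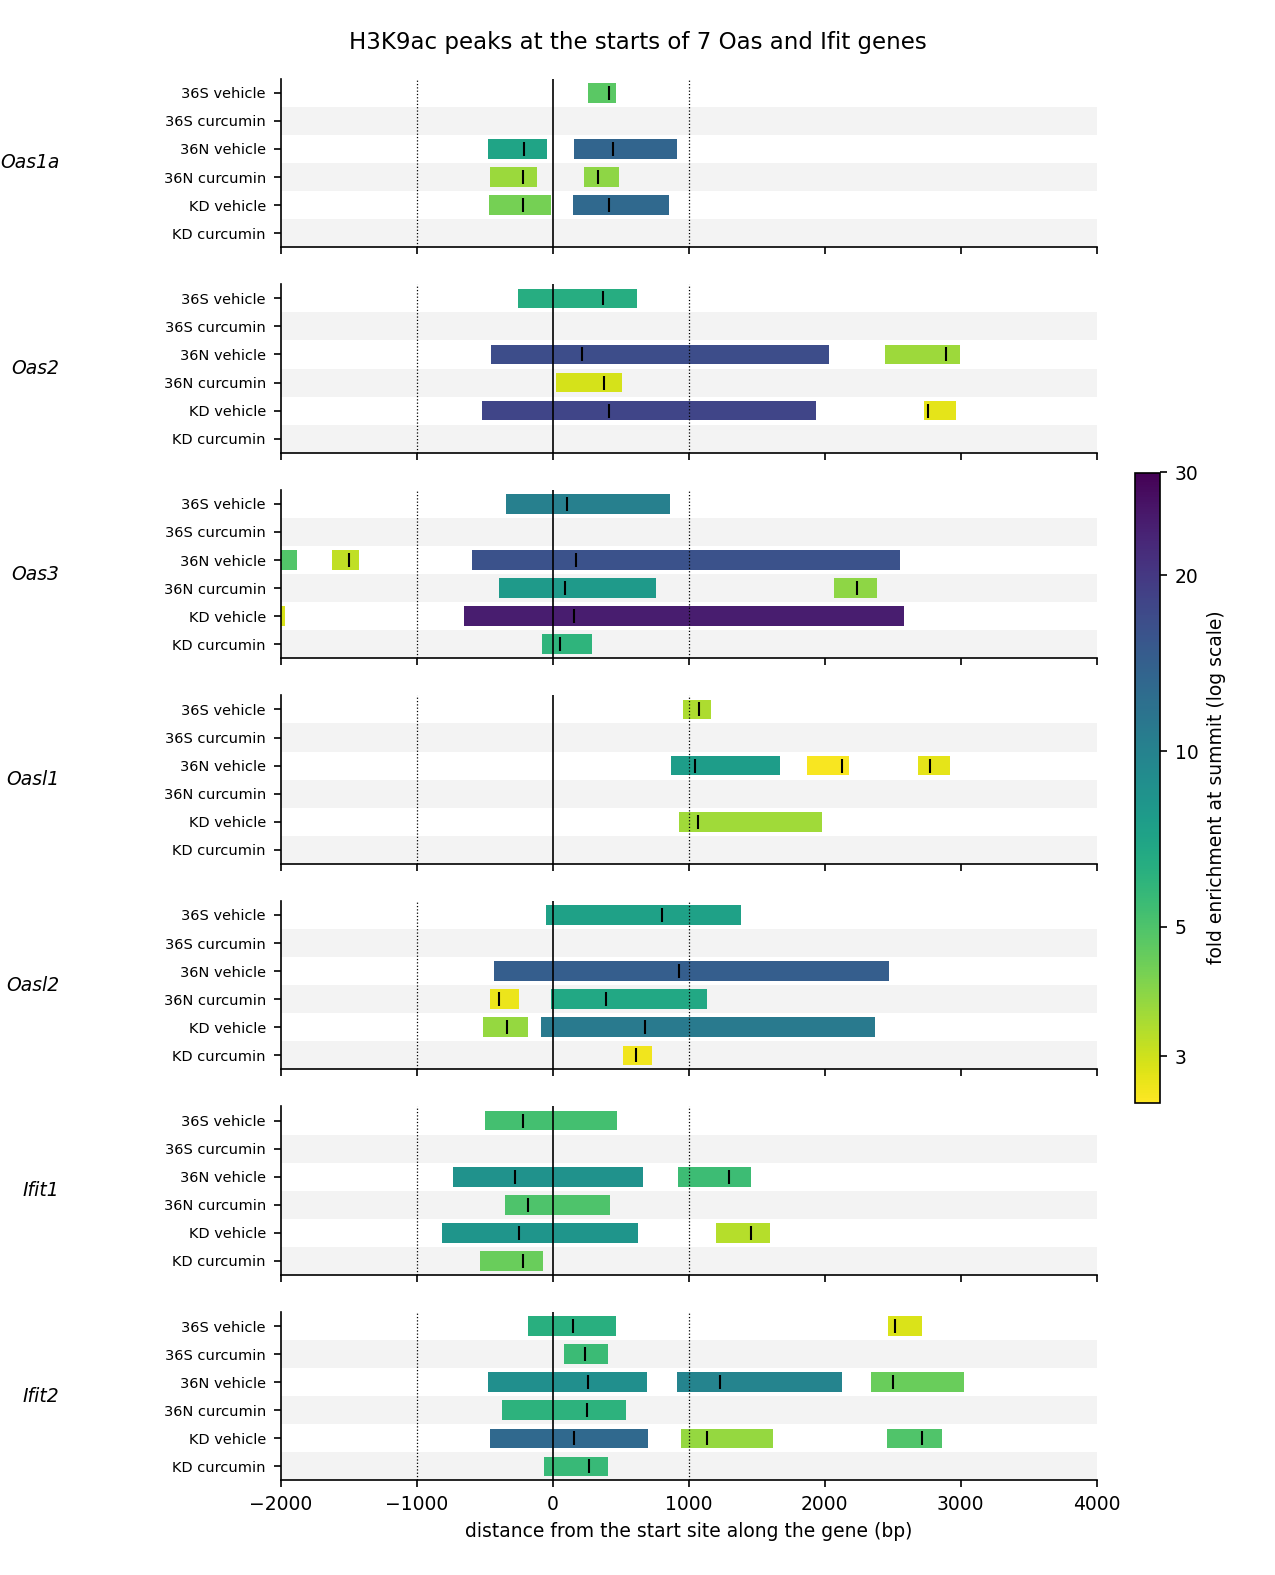
Bars show every H3K9ac peak near the start site of 7 genes, by distance along the gene in bp, with 1 row per library and curcumin rows shaded; colour gives the fold enrichment at the summit on a log scale, ticks mark summits and dotted lines the window of 1000 bp on each side. The longest and darkest bars lie in the *GFI1-36N* and *GFI1-KD* vehicle rows, and the row of the *GFI1-36S* library labelled curcumin is empty for every gene but *Ifit2*.

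*Oas3* and *Oas2* held the strongest promoter peaks of the members in *GFI1-36N* and *GFI1-KD* vehicle. *Oas3*, which encodes the synthetase with the longest protein and the highest affinity for double-stranded RNA, had a fold enrichment of 24.6 with vehicle and 5.97 with curcumin in *GFI1-KD*, 16.0 and 7.79 in *GFI1-36N*, and 10.3 in the *GFI1-36S* library labelled vehicle with no peak in its partner. Its ranks were 59.5 and 9.16 in *GFI1-KD*, 43.4 and 15.2 in *GFI1-36N* mice, with 19.4 and 0 in *GFI1-36S*. All vehicle values were above all curcumin values. The *GFI1-KD* vehicle summit held 179 fragments (95% interval 154 to 207) and the curcumin summit 35 (24.4 to 48.7), which gave a height ratio of 0.242 (0.164 to 0.350). In *GFI1-36N* the ratio was 0.495 (0.341 to 0.709). The *Oas3* peak of *GFI1-KD* vehicle ran over 3239 bp at chr5:120775073-120778311, and what remained with curcumin was 362 bp around the start site, at chr5:120777374-120777735, 11.2% of that width.

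*Oas2*, whose product also makes 2-5A, showed the lowest ratio of the group. Its fold enrichment was 16.8 under vehicle and 2.94 under curcumin in *GFI1-36N*, 18.1 with vehicle and no peak with curcumin in *GFI1-KD*, and 6.40 with no peak in the partner in *GFI1-36S*. In *GFI1-36N* the rank was 47.1 with vehicle, near the middle of all promoters, and 0.72 with curcumin, near the bottom. The summits held 116 (95.9 to 139) and 16 (9.15 to 26.0) fragments, a height ratio of 0.171 (0.0945 to 0.289). In *GFI1-KD* the vehicle summit held 131 fragments (110 to 155) and its rank was 39.0, and no promoter peak was listed with curcumin.

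*Oas1a* encodes the synthetase most like human OAS1. It was marked on both sides of its start, in *GFI1-36N* vehicle by a peak with its summit at −209 bp and a stronger one with its summit at 443 bp. The strongest peak had a fold enrichment of 13.5 under vehicle and 3.81 under curcumin in *GFI1-36N*, 12.9 and no peak in *GFI1-KD*, and 4.72 and no peak in *GFI1-36S*. In *GFI1-36N* the fragments at that summit numbered 93 (75.1 to 114) and 21 (13.0 to 32.1), a height ratio of 0.280 (0.165 to 0.453). The same peak held 93 fragments (75.1 to 114) in *GFI1-KD* vehicle and 27 (17.8 to 39.3) in the *GFI1-36S* library labelled vehicle. In ranks these were 33.6 and 4.35 in *GFI1-36N*, 25.8 and 0 in *GFI1-KD*, and 6.61 and 0 in *GFI1-36S*.

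The OAS-like genes lie side by side in a cluster of their own on chromosome 5. *Oasl2*, which encodes an OAS-like protein with ubiquitin-like domains, was marked from its start into the gene. Its fold enrichment was 14.4 and 6.75 with vehicle and curcumin in *GFI1-36N*, 10.9 and 2.64 in *GFI1-KD*, and 7.24 and no peak in *GFI1-36S*. The height ratio was 0.475 (0.318 to 0.697) in *GFI1-36N* and 0.265 (0.159 to 0.423) in *GFI1-KD*, where the curcumin peak, 215 bp wide, ranked 0.09 and was thus among the weakest promoter peaks of its library. *Oasl1* was the weakest of the 7 genes. Its peak lay just downstream of the promoter, with the summit 1024 to 1051 bp from the nearest start and only its edge inside the 1 kb window. The fold enrichment was 7.62 in *GFI1-36N*, 3.58 in *GFI1-KD* and, for *GFI1-36S*, 3.38 with vehicle, from 52, 25 and 19 fragments, and no curcumin library had the peak. The last 2 of these counts are close to the weakest summits listed, so in *GFI1-KD* and *GFI1-36S* a missing *Oasl1* peak was within what the depth can hide.

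*Ifit1* and *Ifit2* had height ratios nearer to 1 than those computed for *Oas1a*, *Oas2*, *Oas3* and *Oasl2*. Both still had peaks with curcumin in *GFI1-36N* and *GFI1-KD*. For *Ifit1* the fold enrichment with vehicle and curcumin was 8.48 and 5.02 in *GFI1-36N*, 8.18 and 4.43 in *GFI1-KD*, and 5.23 and no peak in *GFI1-36S*. The height ratio was 0.598 (0.367 to 0.954) in *GFI1-36N* and 0.518 (0.321 to 0.816) in *GFI1-KD*. Its summit lay 183 to 276 bp before the start in all 5 libraries with a peak, on the side of *Ifit1bl2*, and the peak covered the starts of both genes in each of them except *GFI1-KD* curcumin, where it ended 72 bp short of *Ifit1*. *Ifit2*, whose product is linked to apoptosis and to control of viral mRNA translation, was the only gene of the group with a promoter peak in all 6 libraries. Its fold enrichment was 9.77 and 6.06 in *GFI1-36N*, 13.0 and 5.64 in *GFI1-KD*, and 6.23 and 5.52 in *GFI1-36S*. The height ratio was 0.628 (0.403 to 0.963) in *GFI1-36N*, 0.435 (0.283 to 0.653) in *GFI1-KD* and 0.875 (0.520 to 1.46) in *GFI1-36S*, so in *GFI1-36S* a difference was not detectable at this depth. The median ratio of all 9406 genes with a peak in both *GFI1-36S* libraries was 0.583. The strongest *GFI1-36N* vehicle peak of *Ifit2* was not the one at the start but a second one with its summit 1228 bp downstream. The *GFI1-36N* height ratio of *Ifit2* thus compared peaks at different places. The peak over the start held 60 fragments with vehicle (height 10.1) and 34 with curcumin (height 7.12), and no interval was computed for this pair.

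*Ifit3*, whose product stabilises IFIT1 and bridges MAVS to TBK1, had no peak in its promoter or body in any library. Neither had its near-identical neighbour *Ifit3b*. In the 2001 bp around their starts, 98.3% of 1927 aligned bases were identical. Of the 50-base words in these windows, 51.3% for *Ifit3* and 52.2% for *Ifit3b* occurred once in the genome, and within 250 bp of the start 40.5% and 31.9% did, against 100% within 250 bp of *Oas2*, *Oasl1*, *Oasl2*, *Ifit1* and *Ifit2*. How reads that map to several places were handled is not given in the sources used here. Its part in the missing peaks was not tested, and no level can be given for *Ifit3*. For *Oas1a* and its neighbour *Oas1g*, with 92.0% of 1767 aligned bases identical, 52.9% of the words near each start occurred once. The gap between the 2 *Oas1a* peaks, from 42 bp before to 161 bp after the start in *GFI1-36N* vehicle, falls in that stretch. Right at the start, however, the median word of either gene occurred only 1 time in the genome. The part of repeated words in the gap was not tested.

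**Figure D2:**
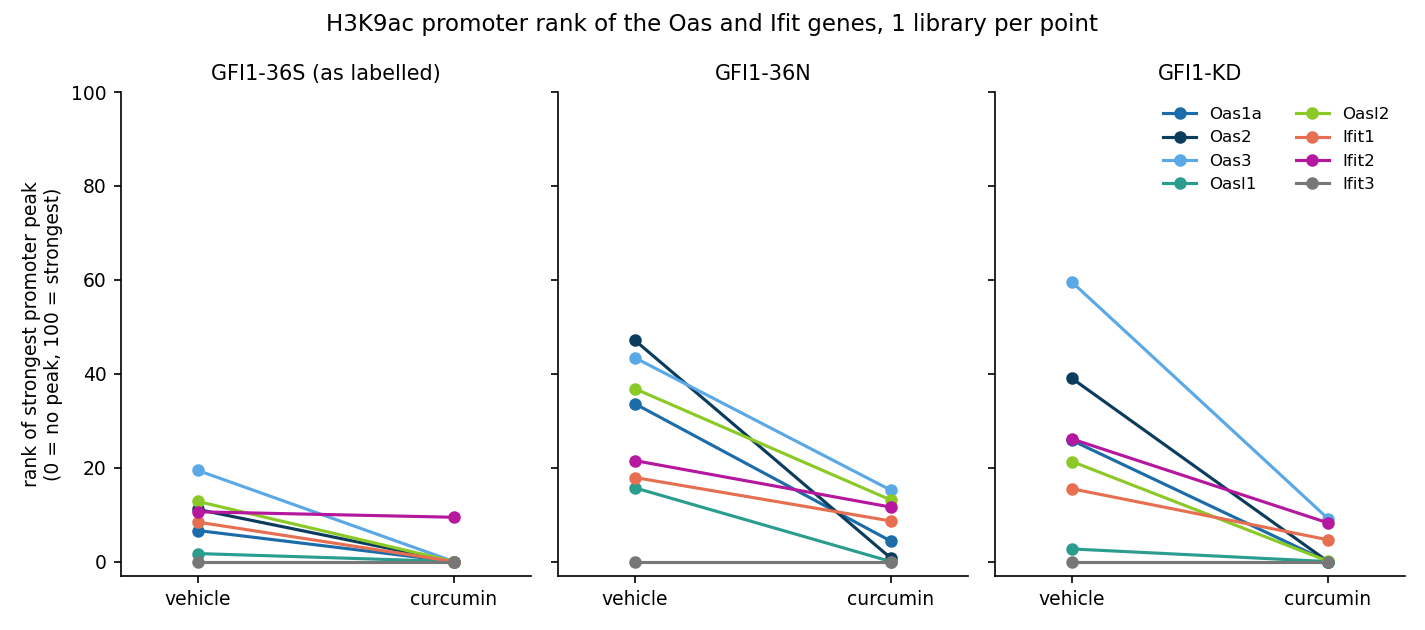
Points give the rank of the strongest promoter peak of each gene (0 to 100, 0 is no peak) in the vehicle and curcumin library of each genotype, 1 library per point, joined by gene. All 7 genes with a peak have the lower point with curcumin in every genotype, with *GFI1-36S* as labelled, and *Oas3* in *GFI1-KD* vehicle is the highest point at 59.5.

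**Figure D3:**
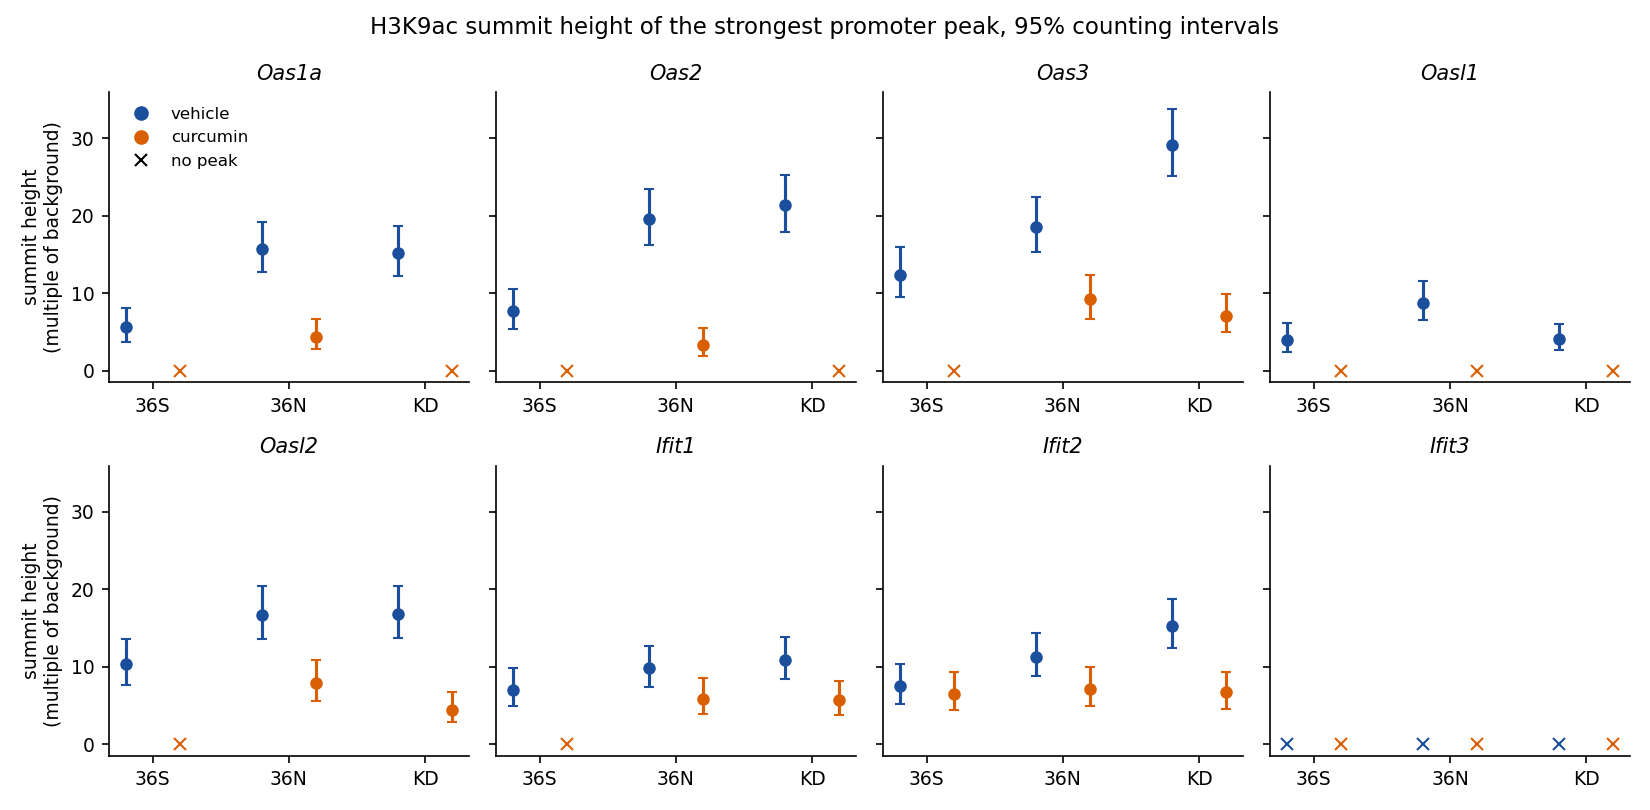
Points give the summit height of the strongest promoter peak as a multiple of the genome background of the library, with 95% counting intervals, for vehicle (blue) and curcumin (orange) in each genotype; crosses mark no listed peak. The intervals of vehicle and curcumin are apart for *Oas1a*, *Oas2*, *Oas3* and *Oasl2* in *GFI1-36N*, and overlap for *Ifit1* and *Ifit2* there and for *Ifit2* in *GFI1-36S*.

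The members were then set against all genes. Since they were chosen with earlier results of these data known, the contrast describes them and is not independent support. In *GFI1-36N*, 7 of the 7 genes with a peak ranked lower with curcumin, where 39.9% of 12022 genes did. Of the 7, 5 were lower by 10 or more (11.3% of all genes) and 1, *Oasl1*, had lost its promoter peak (1.84% of all genes), which means that a peak was listed with vehicle and none with curcumin. The median change in rank of the members was −23.7, against 1.889 for all genes. The median height ratio of the 6 members with a peak in both libraries was 0.485, against 1.25 for 10890 genes. The median promoter of this pair of libraries was thus higher with curcumin, and the members were lower.

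In *GFI1-KD*, all 7 ranked lower with curcumin (62.9% of 11908 genes), 6 by 10 or more (20.6%), and 3, *Oas1a*, *Oas2* and *Oasl1*, had lost their promoter peak (6.73%). The median change in rank was −21.2, against −2.344 for all genes. The median height ratio of the 4 members with a peak in both libraries was 0.350, against 0.885 for 10377 genes. In *GFI1-36S* as labelled, all 7 ranked lower (69.1% of 11608 genes), 3 by 10 or more (41.4%) and 6 had lost their promoter peak (16.2%). The median change in rank was −8.40 against −6.614 for all genes, and the counts of 7 and 3 are close to the background. The 7 genes started from vehicle ranks of at most 19.4 there. Among all 2057 genes with a vehicle rank between the members' lowest and highest, 61.9% lost their peak in *GFI1-36S*. The same comparison gave 0.304% of 3616 genes in *GFI1-36N* and 8.82% of 6725 genes in *GFI1-KD*. With the *GFI1-36S* treatments exchanged, as the names of the lists have them, all 7 genes ranked higher with curcumin (69.1% of all genes). None had lost a peak (1.99% of all genes). The exchange swaps the libraries, so these values are close to the background and say nothing about the members.

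**Figure D4:**
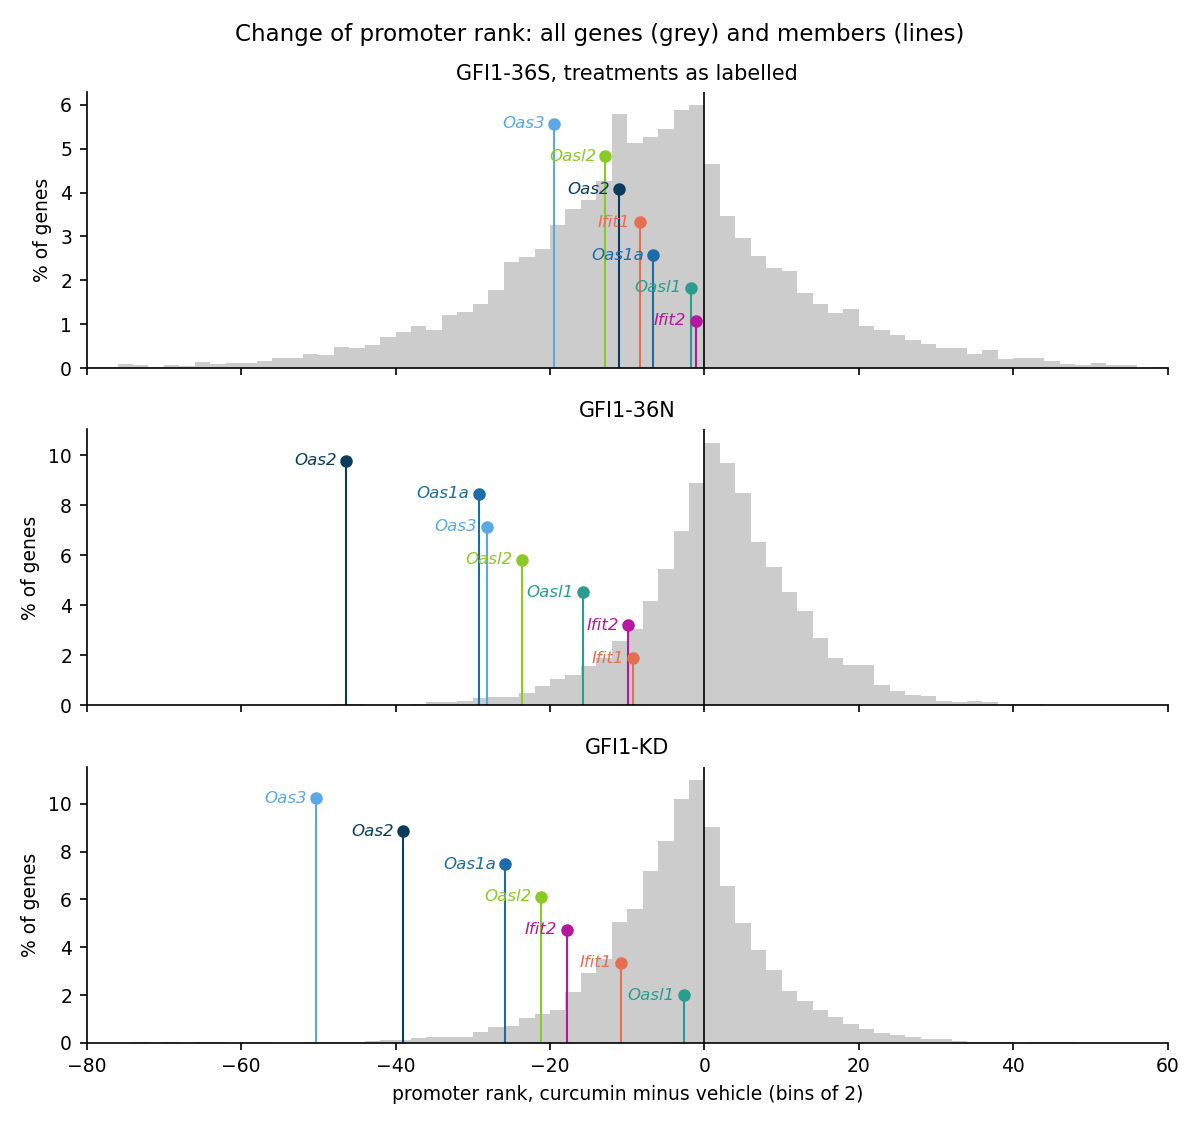
Grey bars give the percentage of all genes with a promoter peak in either library by their change in rank, curcumin minus vehicle, in bins of 2, for each genotype; coloured lines mark the 7 members with a peak. In *GFI1-36N* and *GFI1-KD* most members lie in the left tail, with *Oas2* at −46.4 and *Oas3* at −50.3, and in *GFI1-36S* they lie within the bulk of all genes.

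*Oas1a*, *Oas2* and *Oas3* had the largest changes in rank of the members in both *GFI1-36N* and *GFI1-KD*. For *Oas1a*, *Oas2* and *Oas3* they were −29.2, −46.4 and −28.2 in *GFI1-36N* compared with −25.8, −39.0 and −50.3 in *GFI1-KD*. At most 1.01% of all genes in *GFI1-36N* and 2.75% in *GFI1-KD* were as low as or lower than any of the 3. For *Ifit1*, with −9.26 and −10.8, the shares were 12.4% and 18.4%, and for *Ifit2*, with −9.87 and −17.8, they were 11.6% and 7.14%. The difference between the 3 *Oas* genes and the *Ifit* genes was not tested. The 3 *Oas* genes also had the higher vehicle ranks in *GFI1-36N*, 33.6 to 47.1 against 17.9 and 21.5 for *Ifit1* and *Ifit2*. In *GFI1-KD*, *Oas1a* and *Ifit2* had nearly the same vehicle rank, 25.8 and 26.1.

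Over all 6 libraries, each vehicle rank was above each curcumin rank for 4 of the 7 genes, *Oas1a*, *Oas2*, *Oas3* and *Oasl1* (6.02% of 12557 genes with a peak in any library). For *Oasl2*, *Ifit1* and *Ifit2* the *GFI1-36S* library labelled vehicle lay below the *GFI1-36N* curcumin library, with ranks of 12.8 and 13.1 for *Oasl2*, 8.40 and 8.64 for *Ifit1*, and 10.6 and 11.6 for *Ifit2*. With the *GFI1-36S* treatments exchanged the count was 0 of 7 (1.91% of all genes), which says nothing about the members.

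The 3 vehicle libraries also differed from each other, and with 1 library per genotype a difference of genotype and of library cannot be told apart. All 7 genes ranked lowest of the 3 vehicle libraries in *GFI1-36S* (31.4% of all genes). With the treatments of this genotype exchanged this was also true of all 7, and of 54.7% of all genes. The median height ratio of the 7 over the *GFI1-36S* library labelled vehicle was 1.62 in *GFI1-36N* (0.817 for all genes) and 2.06 in *GFI1-KD* (1.07 for all genes). The ratio was largest for *Oas1a*, with 2.82 (1.82 to 4.50) in *GFI1-36N*, and *Oas2*, with 2.79 (1.93 to 4.14) in *GFI1-KD*. Its interval included 1 for *Ifit1* in *GFI1-36N*, with 1.39 (0.898 to 2.20), and for *Oasl1* in *GFI1-KD*, with 1.04 (0.549 to 1.99). Between *GFI1-KD* and *GFI1-36N* vehicle, the height of *Oas3* was 1.57 times as high in *GFI1-KD* (1.23 to 2.01) and that of *Oasl1* 0.464 times (0.276 to 0.761). The median for all genes in this comparison was 1.31, which lies inside the interval of *Oas3*, and for the members it was 1.09. The intervals of the other 5 genes included 1, with ratios from 0.965 for *Oas1a* to 1.35 for *Ifit2*. With curcumin, *Oas3*, *Ifit1* and *Ifit2* had intervals that included 1 between these genotypes, and *Oasl2* had 0.559 times the height in *GFI1-KD* (0.315 to 0.970). The median for all genes in this comparison was 0.927, which lies inside the interval of *Oasl2*.

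Beyond the promoters, the 8 genes held 13 peaks inside the gene bodies, 12 with vehicle and 1 with curcumin, between 235 and 683 bp wide. Over all protein-coding genes 42.4% of such peaks were in curcumin libraries. *GFI1-36N* held 7 of the members' peaks with vehicle and 1 with curcumin, where all genes had 18741 and 23866, *GFI1-KD* held 4 and 0, where all genes had 18797 and 11850, and *GFI1-36S* held 1 and 0, where all genes had 19775 and 6438. The single curcumin peak lay 2237 bp into *Oas3* in *GFI1-36N*, with a fold enrichment of 3.81 from 21 fragments, and the *GFI1-36N* vehicle library had its 3153 bp promoter peak over the same place. *Ifit2* had the most body peaks. *GFI1-36N* vehicle had 4 in it, of which 3 lay at 19806 to 20572 bp from the start inside the long annotated span of the gene, and *GFI1-36S* and *GFI1-KD* vehicle had 1 each. *Oas2* had a body peak 2893 and 2761 bp from its start in *GFI1-36N* and *GFI1-KD* vehicle, of 24 and 22 fragments.

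For the clusters as a whole, the share of the DNA covered by peaks was lower with curcumin for all 3 clusters in all 3 genotypes, with *GFI1-36S* as labelled. The *Oas* cluster (chr5:120730333-120921652, 191 kb, 10 genes) was covered to 5.87% under vehicle and 1.83% under curcumin in *GFI1-36N*, 6.31% and 0.433% in *GFI1-KD*, and 2.06% and 0.216% in *GFI1-36S*. The *Oasl* pair (chr5:114896936-114937915, 41.0 kb) was covered to 10.9% and 3.33%, 9.34% and 0.525%, and 4.33% and 0% in the same order. The *Ifit* cluster (chr19:34550694-34650009, 99.3 kb, 6 genes) was covered to 5.88% and 1.34%, 4.50% and 0.889%, and 1.98% and 0.324%. The mean fold enrichment of the peaks in the *Oas* cluster was 9.30 under vehicle and 4.85 under curcumin in *GFI1-36N*, compared with 9.80 and 5.31 in *GFI1-KD*. Over the whole genome the peaks covered 36.4 Mb with vehicle and 42.3 Mb with curcumin in *GFI1-36N*, 42.0 and 29.1 Mb in *GFI1-KD*, and 36.8 and 16.3 Mb in *GFI1-36S*.

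**Figure D5:**
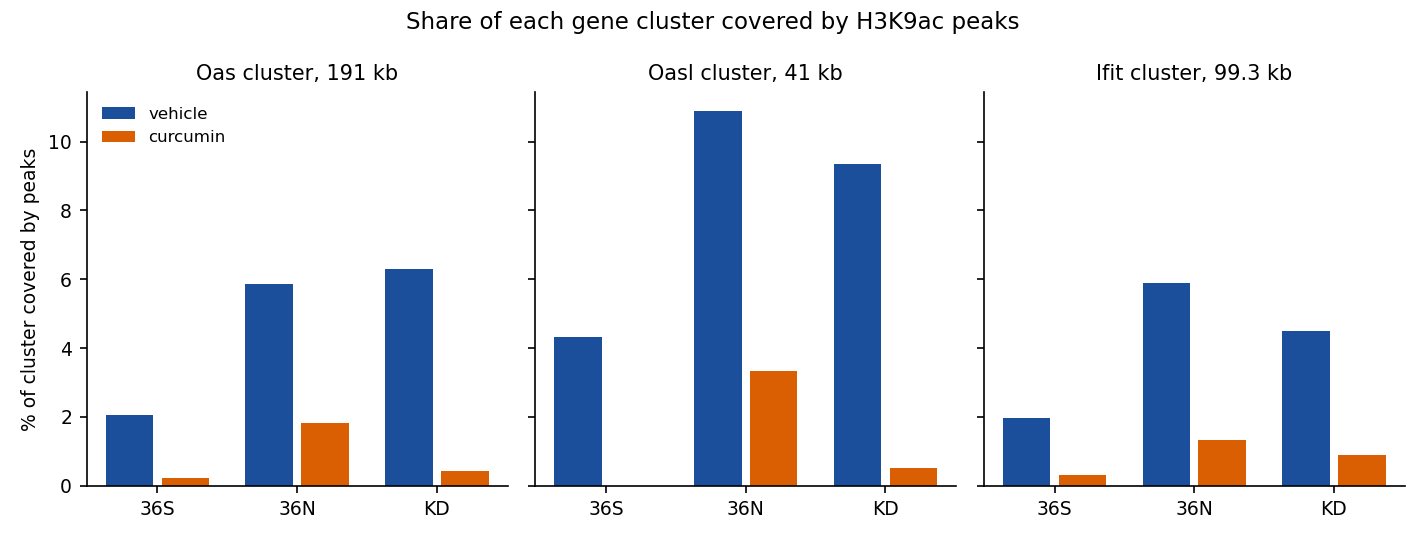
Bars give the percentage of each gene cluster that is covered by H3K9ac peaks in the vehicle (blue) and curcumin (orange) library of each genotype, 1 library per bar. The curcumin bar is the lower of the pair in all 9 pairs, and in *GFI1-36N* the coverage of the *Oas* cluster is 5.87% with vehicle and 1.83% with curcumin.

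The clusters hold 10 other *Oas* and *Ifit* genes, of which 4 had a promoter peak in any library. The strongest peak of the *Oas* cluster in each vehicle library was that shared by the divergent *Oas1c* and *Oas1b*, the latter annotated as a polymorphic pseudogene. It was present in all 6 libraries, with a fold enrichment of 17.2 under vehicle and 7.10 under curcumin in *GFI1-36N*, 26.4 and 4.65 in *GFI1-KD*, and 17.3 and 5.52 in *GFI1-36S*. Its height ratio was 0.416 (0.283 to 0.600), 0.174 (0.112 to 0.262) and 0.309 (0.198 to 0.468) in the same order. *Oas1g* had peaks with vehicle in *GFI1-36N* and *GFI1-KD* alone, of rank 13.1 and 7.20. *Ifit1bl2* shared the *Ifit1* peak. The 6 genes *Oas1d*, *Oas1e*, *Oas1f*, *Oas1h*, *Ifit1bl1* and *Ifit3b* had no promoter peak in any library.

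Of the genes next to the clusters, *2210016L21Rik* and *Lipa* had a peak in every library. *2210016L21Rik*, 4243 bp past *Oasl1*, had ranks of 50.2 under vehicle and 73.0 under curcumin in *GFI1-36N*, 63.1 and 50.5 in *GFI1-KD*, and 63.0 and 32.0 in *GFI1-36S*. Its height ratio was 1.61 (1.26 to 2.05) in *GFI1-36N* and 0.765 (0.601 to 0.969) in *GFI1-KD*. *Lipa*, the lysosomal acid lipase gene 23220 bp from *Ifit2*, ranked 30.3 and 24.9 in *GFI1-36N*, 43.5 and 29.3 in *GFI1-KD*, and 31.3 and 1.74 in *GFI1-36S*. Its height ratio was 1.04 (0.747 to 1.43) in *GFI1-36N*, 0.707 (0.531 to 0.935) in *GFI1-KD* and 0.253 (0.149 to 0.412) in *GFI1-36S*. The other flanking genes were hardly marked. *Slc16a12* and *Dtx1* each had a promoter peak in 1 library, of 22 and 20 fragments, and *Rph3a* and *4930519G04Rik* had none.

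*Abce1* and *Pde12*, which were listed for the 2-5A pathway, had a promoter peak in every library. *Abce1*, which encodes a ribosome recycling factor, ranked 66.3 and 87.1 in *GFI1-36N* compared with 68.3 and 82.3 in *GFI1-KD*, and *Pde12*, which encodes a phosphodiesterase of 2-5A, 72.3 and 64.1 in *GFI1-36N* compared with 69.0 and 66.2 in *GFI1-KD*. Neither was lower by 10 or more in any genotype.

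The receptor and signalling genes upstream of the members all had promoter peaks in all 6 libraries, and their counts of lower ranks stood further from the background in *GFI1-36N* than in the other genotypes. *GFI1-36N* and *GFI1-KD* each had 10 of 13 lower with curcumin (39.9% and 62.9% of all genes), with median changes of −8.748 and −7.997, and *GFI1-36S* had 11 (69.1% of all genes), with a median change of −21.83. *Irf9*, the DNA-binding part of the ISRE complex, had the largest mean change over *GFI1-36N* and *GFI1-KD*, from rank 87.9 to 31.4 in *GFI1-36N*, 71.1 to 38.1 in *GFI1-KD* and 63.7 to 5.99 in *GFI1-36S*. *Irf7*, which drives further interferon production, ranked 84.3 and 55.2, 91.9 and 64.7, and 86.1 and 58.8 in the same order. *Irf5* and *Irf8* went in opposite directions, lower with curcumin in *GFI1-36N* and higher in *GFI1-KD*. *Irf3* ranked higher with curcumin in all 3 genotypes, by 6.005 in *GFI1-36N* and 8.947 in *GFI1-KD*.

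Other interferon-stimulated genes were lower together with the members. Of 46 listed, 45 are annotated as protein-coding and were ranked, and the exception is *Mx2*. In *GFI1-36N*, 39 of 44 with a peak ranked lower with curcumin (39.9% of all genes) and 32 by 10 or more (11.3%), with a median change of −18.26. In *GFI1-KD* 42 of 43 ranked lower (62.9%) and 34 by 10 or more (20.6%), with a median of −20.98. In *GFI1-36S* 38 of 43 ranked lower (69.1%) and 31 by 10 or more (41.4%), with a median of −17.88. The genes with the lowest mean change over *GFI1-36N* and *GFI1-KD* were *Trim30a*, with ranks of 89.9 and 21.5 in *GFI1-36N*, *Rtp4*, with 52.3 and 4.35, and *Xaf1*, with 65.7 and 16.0. At the other end stood *Bst2*, the gene of tetherin, with 95.9 and 91.3 in *GFI1-36N* compared with 84.2 and 88.6 in *GFI1-KD*, and the immunoproteasome gene *Psmb8*, with 57.8 and 61.4 and with 69.7 and 66.4. *Sp100* had no promoter peak in any library. This list had been part of an earlier analysis of these libraries, so its direction is not independent support.

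Among 4261 genes with a promoter peak in at least 2 libraries and an SD of rank of at least 10 over the 6, those with the pattern most like the mean rank of the members by Pearson's r were *Zbp1* (0.9956), *Xaf1* (0.9912), *Lgals9* (0.9887), *Parp12* (0.9781), *Slfn1* (0.9755), *Rtp4* (0.9715), *Otud5* (0.9645), *Gm17334* (0.9593), *Pml* (0.9576) and *Gch1* (0.9547). The 6 points are libraries of different genotype, treatment and depth, and r is given as a description. Of the 10, 5 belong to the list of interferon-stimulated genes, which has 45 ranked genes out of 21938 protein-coding genes. Its share of the 4261 genes was not counted. As stated above, the list is not independent of these data. *Zbp1*, a sensor of Z-form nucleic acids, ranked 42.2 and 17.6 in *GFI1-36N* compared with 36.4 and 11.8 in *GFI1-KD*.

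In BM cells, fewer cells of a type that carry the mark and less of the mark per cell cannot be told apart. Marker genes of cell types in BM were counted in the same libraries. In *GFI1-36N* the number of neutrophil genes with a promoter peak was 9 of 12 with vehicle and 9 with curcumin, of monocyte genes 8 and 7 of 8, of T-cell genes 7 and 4 of 12 and of erythroid genes 8 and 6 of 10. For plasmacytoid dendritic cells, strong makers of interferon, the count was 3 and 2 of 6, with *Cox6a2*, *Klk1* and *Ly6d* unmarked in every library. *Siglech* was marked with vehicle alone, at rank 2.47, while *Tcf4* ranked 50.2 and 66.1 and *Ccr9* 14.4 and 18.0. In *GFI1-KD* *Tcf4* ranked 53.5 and 80.5, *Ccr9* 28.4 and 6.32, and *Siglech* was unmarked. The stem and progenitor count was 9 and 8 of 10. In *GFI1-KD* the neutrophil count was 11 with vehicle and 6 with curcumin, the erythroid count 10 and 5, the monocyte count 8 and 8 and the stem and progenitor count 9 and 10. Of these stem and progenitor genes, 5 ranked lower and 5 higher with curcumin (median change 1.26). *Hoxa7* ranked 7.20 and 99.2 there, and *Hoxa9* was higher by 88.192. In *GFI1-36N* both ranked 99.4 and 99.7. The neutrophil gene *S100a8* ranked 74.9 and 10.2 in *GFI1-KD*. The *GFI1-KD* libraries thus differed strongly at some marker genes, which the counts do not show. Every *GFI1-KD* comparison of treatments rests on these libraries. The B-cell count was 2 with vehicle and 1 with curcumin of 8 in *GFI1-36N*, 4 and 2 in *GFI1-KD*, and 1 and 0 in *GFI1-36S*. *Cd79b* was marked in 5 libraries, with ranks of 24.5 and 22.5 in *GFI1-36N* compared with 15.0 and 29.3 in *GFI1-KD*, and *Ms4a1* and *Pax5* were unmarked in all 6. The median rank of the monocyte genes was 26.0 under vehicle and 16.4 under curcumin in *GFI1-36N*, compared with 22.6 and 20.5 in *GFI1-KD*. By gene, 7 of 8 ranked lower with curcumin in *GFI1-36N* (median change −6.888) and 6 of 8 ranked higher in *GFI1-KD* (median change 2.347). Of the neutrophil genes with a peak, 6 of 9 ranked higher in *GFI1-36N* (median change 6.216) and 7 of 11 lower in *GFI1-KD* (−6.145). Of the erythroid genes, 6 of 9 ranked higher in *GFI1-36N* (3.889) and 10 of 10 lower in *GFI1-KD* (−14.65). Among all genes, 39.9% ranked lower with curcumin in *GFI1-36N* (median change 1.889) and 62.9% in *GFI1-KD* (−2.344). The neutrophil counts of both genotypes and the erythroid count of *GFI1-36N* were thus close to the background. The part of these cell types in the members' values was not tested.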

How the data were processed

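H3K9ac ChIP-seq libraries of BM cells were analysed, 1 for each of 3 genotypes and 2 treatments, grouped by the sample labels. Before deposit, the authors removed adapters (Trim Galore), aligned the reads (BWA-MEM, mm10), and ran MACS2 on every library by itself, leaving out black-listed regions of ENCODE. The deposited lists hold a fold enrichment (a ratio to the local background), a −log10 p-value, a −log10 q-value and an integer score per peak. These are not normalised between libraries. The control of each list, the threshold and the handling of duplicates and of reads with several positions are not given in the sources used here.

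TSSs of basic transcripts came from GENCODE M21. A promoter spanned 1000 bp on each side of any TSS, and a peak had to overlap it by at least 1 bp. Fragments at a summit were recovered from the relation of fold enrichment and p within 0.002, for 98.6% to 99.9% of a library's peaks. Intervals are exact 95% Poisson intervals, and for ratios exact conditional intervals. With 1 library per group no test was run. The steps were tested on simulated data. Python 3.11.15, numpy 2.4.6, pandas 2.3.3 and scipy 1.17.1 were used. Sequences came from RefSeq (GRCm38.p6).

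The members and lists were chosen with earlier results of these data known. Genes named are the 8 members, the other *Oas* and *Ifit* genes of chromosomes 5 and 19, the nearest genes on each side of a cluster, the 2-5A and upstream genes, the 3 lowest and 3 highest of the other interferon-stimulated genes, and the 10 most similar to the members. Some genes of these lists are not reported here. Alternatives were a stricter threshold (−log10 q of 5 or more), the top 20354 peaks from every list, a window of 3 kb, the summit inside the window, 1 TSS per gene, all biotypes, ranks by −log10 p, heights scaled to shared promoter peaks, the *GFI1-36S* treatments exchanged and, chosen after seeing the data, the TSSs of all transcripts.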

Additional observations from a re-analysis of the deposited data

How the results depend on the processing

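In *GFI1-36N* and *GFI1-KD* the members' median change in rank and median height ratio kept their direction under every alternative run, with ratios of 0.383 and 0.387 after scaling to shared promoter peaks. Within 1.5 times of the reported value and in the same direction were 49 of 57 values of the group and 108 of 114 of single genes. In *GFI1-36N* the count of lost promoter peaks was 2 at a −log10 q of at least 5, 3 with equal numbers of top peaks and 0 with the summit inside the window, which drops *Oasl1*. In *GFI1-KD* it was 2 with the summit inside the window and 3 otherwise. In *GFI1-36S* the median change in rank was −3.63 with equal numbers of top peaks, against −3.834 for all genes. In that setting 5 of the 6 members with a peak ranked lower, so the members did not stand out by rank. With the *GFI1-36S* treatments exchanged, which swaps the libraries by construction, the lost count was 0, the median change 8.40, the height ratio 1.14, and the changes of *Oas2*, *Oas3* and *Oasl2* 11.1, 19.4 and 12.8. Scaled to shared promoter peaks, the *GFI1-36S* ratio, of *Ifit2* alone, was 1.54. No paired analysis was possible because each group holds 1 library. A count of 13 to 17 fragments at the weakest summits limits what a missing peak can show.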
